A study of Macaca mulatta with 6 samples.

Results

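The nuclear genes for subunits of the mitochondrial respiratory chain were followed in cultured rhesus monkey spermatogonial stem cells (SSCs) grown with or without platelet-derived growth factor (PDGF). Members were taken by gene symbol, under a rule set with earlier results of these data known. For complex I these were the genes beginning with NDUFA, NDUFB, NDUFC, NDUFS or NDUFV. The others began with SDHA to SDHD (complex II), UQCR (complex III), COX4 to COX8 (complex IV) or ATP5 (complex V). Assembly factors that share the NDUFAF and SDHAF prefixes were left out. The rule gave 55 of the 17795 listed genes, with 26 in complex I, 4 in complex II, 5 in complex III, 7 in complex IV and 13 in complex V. Subunits encoded by mitochondrial DNA carry other symbols and were not analysed here. Some nuclear subunits were not among the listed genes, such as COX4I2, the counterpart of COX4I1, and COX6A1, COX6B1, COX7A2, COX8A, COX5B, UQCRFS1 and NDUFV2. Counts and sums for complexes I, III, IV and V therefore cover only part of their nuclear genes.

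The respiratory chain sits in the inner mitochondrial membrane. Complexes I and II take electrons from NADH and succinate and pass them through coenzyme Q to complex III, from which cytochrome c carries them to complex IV, where oxygen is reduced to water. Complexes I, III and IV pump protons as they work, and complex V, the ATP synthase, uses the returning protons to make ATP. In the testis, SSCs are known to rely largely on glycolysis, whereas oxidative phosphorylation becomes more prominent as germ cells differentiate.

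Bulk RNA sequencing covered 6 libraries, 3 of SSC PDGF+ and 3 of SSC PDGF-, all from Macaca mulatta and all labelled as testis. The study's methods describe an SSC medium containing serum, GDNF, EGF, bFGF, LIF, Wnt3a, vitamin C, melatonin and human PDGF, and a basement membrane gel for three-dimensional culture. They do not state which form of culture the libraries came from, and do not describe the medium without PDGF separately. A figure legend of the study compares PDGF-treated cultured SSCs with PDGF-free controls. The age of the donor animals and the number of animals behind the libraries are not given in the sources used here, so p-values measure the spread between these samples, which may be technical. The labels place replicate 1 of each group in batch 1, and replicates 2 and 3 in batch 2.

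Expression is given as CPM, the count scaled to the TMM-normalized library total, and a fold change as the log2 ratio of SSC PDGF+ over SSC PDGF-, so that a negative value means less transcript with PDGF. Library totals ranged from 13095467 to 14102697 counts in SSC PDGF+ and from 10593805 to 11605908 in SSC PDGF-. The 55 subunit genes took 0.686% to 0.750% of the counts in SSC PDGF+ and 0.721% to 0.831% in SSC PDGF-. Several defining markers of undifferentiated spermatogonia had few counts, with GFRA1 at 0 to 9 and NANOS2 at 0 in every library. A 0 in these counts cannot be read as absence of the transcript. The markers of this cell type summed to 370 to 420 CPM in SSC PDGF+ and 325 to 382 CPM in SSC PDGF-, and consisted mostly of UCHL1 and ID4. Fibroblast markers summed to 13462 to 18904 CPM in SSC PDGF+ and 15984 to 18403 CPM in SSC PDGF-. Spermatid markers, of which 5 were listed and 3 of 3 tested were lower with PDGF (10.7% of all genes), summed to 48.9 to 77.0 CPM against 417 to 689 CPM. Peritubular myoid markers, of which 2 of 4 were lower, summed to 147 to 158 CPM against 337 to 378 CPM. The part of these cell type differences in the subunit values was not tested, and in bulk RNA fewer cells of a type and less RNA per cell cannot be told apart.

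Without a term for batch, few subunit genes differed between SSC PDGF+ and SSC PDGF- by more than the spread of the replicates. That spread holds the difference between batches, which was larger than the PDGF difference for 36 of the 54 tested members. With batch as a term, 10 members were higher and 26 lower, against 31.2% and 29.4% of all genes. Of the 55 members, 54 had enough counts to be tested, and NDUFA4L2 did not. With edgeR's quasi-likelihood test and a Benjamini-Hochberg adjusted p under 0.05 over 11539 genes, 0 members were higher in SSC PDGF+ and 2 were lower, namely COX7C of complex IV and UQCRH of complex III. Among all genes tested, 7.61% were higher and 10.7% were lower, beside 0% and 3.70% of the members. At an unadjusted p under 0.05 there were 2 members higher and 7 lower (15.7% and 17.5% of all genes), limma-voom called 0 higher and 2 lower (7.61% and 10.4% of all genes), and DESeq2 called 2 higher and 4 lower against backgrounds of 10.2% and 13.4%. Without SSC PDGF- replicate 1 edgeR called 2 higher and 10 lower (10.9% and 14.7% of all genes, 3.70% and 18.5% of members). Without SSC PDGF- replicate 2 it called 0 in either direction (3.77% and 6.47% of all genes), as it did without SSC PDGF- replicate 3 (3.75% and 6.26%). Without SSC PDGF+ replicate 2 or replicate 3 it called 0 higher and 1 lower (3.69% and 6.22%, and 3.79% and 6.16%, of all genes), and after the batch 2 libraries within a group were added up to 1 it called 0 in either direction (1.72% and 4.06%). At an unadjusted p under 0.05, there were 3 members in each of the fits that lacked replicate 2 or replicate 3 of SSC PDGF-, and 2 with the libraries added up.

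Without regard to the threshold, log2 fold changes were above 0 for 17 members and below 0 for 37. Their median was -0.13 on the log2 scale (interquartile range -0.37 to 0.08), beside 0.02 for all genes tested. This balance was not fixed. With replicate number as a block and an offset for GC content and exon length, 41 members were positive and 13 negative. Their median was then 0.18.

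A replicate block raised the number of calls and left the median at -0.13. Replicates with the same number share a batch, and when the number entered the edgeR model, 10 members were higher and 25 lower, against 31.1% and 29.0% of all genes. These were 18.5% and 46.3% of the members. With the GC and length offset added, 29 members were higher and 7 lower against 28.5% and 27.8%, so that calls were then mostly in the other direction. The fold changes of 53 tested members and their values under this offset stand in the plot of subunit fold changes.

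**Figure D1:**
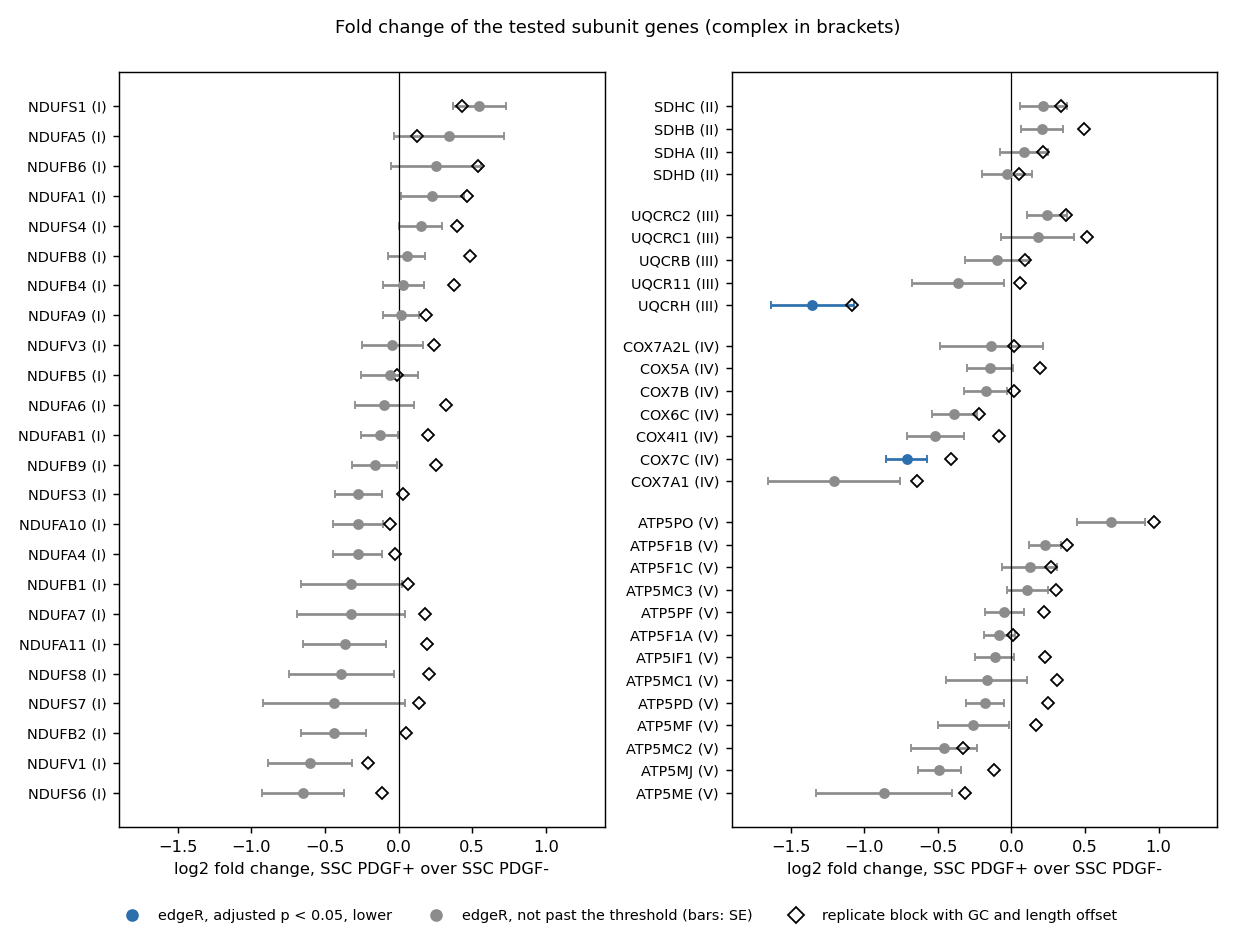
Log2 fold change of 53 tested subunit genes, SSC PDGF+ over SSC PDGF-, by complex. Filled points with bars give the edgeR value and its SE, blue for the 2 genes past the adjusted threshold (UQCRH and COX7C), and open diamonds give the value with replicate block and GC and length offset, under which 40 of the 53 genes lie above 0.

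Length, taken over the merged exons of all transcripts of a gene, set the members apart from other genes before any comparison was made. All 54 tested members were shorter than the median tested gene, with a median length of 872.5 bp (270 to 2900) against 3514 bp, while their median GC content was close to that of other genes (50.1% against 49.2%). Across the 54 members, which share libraries, the log2 fold change had a Pearson r of -0.46 with GC content and 0.31 with log2 length, beside -0.21 and 0.17 across 11522 genes. An offset for length alone, with the block, gave 31 members higher and 8 lower (30.3% and 28.8% of all genes) with a median of 0.20. An offset for GC content alone gave 9 higher and 20 lower (28.3% and 27.7%) with a median of -0.11.

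Batch separated the members along GC content. The difference between batch 2 and batch 1 in mean log2 CPM was larger than the PDGF difference for 36 of the 54 members, and it was positive for 36 and negative for 18. At the extremes, NDUFA5 with 31.7% GC was lower in batch 2 by a log2 difference of -0.96, and NDUFS7 with 65.6% GC was higher by 1.50. The correlation of this difference with GC content was 0.82 (Pearson r, n = 54 genes, described without a test), as the plot of batch difference against GC content shows for 53 of them.

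**Figure D2:**
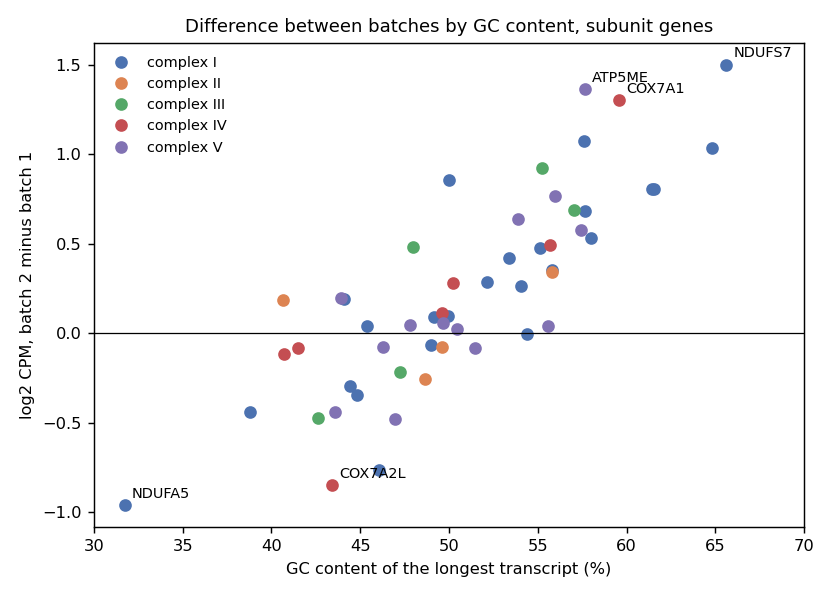
Difference in log2 CPM between batch 2 and batch 1 for 53 tested subunit genes (vertical axis) against the GC content of its transcript in percent (horizontal axis), coloured by complex. The points climb from NDUFA5 at 31.7% GC to NDUFS7 at 65.6% GC.

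Summed over the listed genes of each complex, complex IV stood lowest in SSC PDGF+ relative to SSC PDGF-. Its 7 genes summed to 800, 969 and 882 CPM in SSC PDGF+ replicates 1 to 3 and to 1063, 1338 and 1342 CPM in SSC PDGF-. The groups did not overlap, and the ratio of the means was 0.708, with 0.753, 0.724 and 0.657 within the replicate numbers. Complex II was the only complex whose ratio was above 1, at 1.10, from 365, 401 and 410 CPM against 347, 380 and 346 CPM, although its groups overlapped. Ratios were 0.880 for complex I, 0.946 for complex III and 0.950 for complex V, and the libraries of these complexes overlapped between groups. Replicate 1 of each group was below replicates 2 and 3 in complexes I, III, IV and V. Because each sum is dominated by its most abundant genes, the ratios are described here and were not tested.

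**Figure D3:**
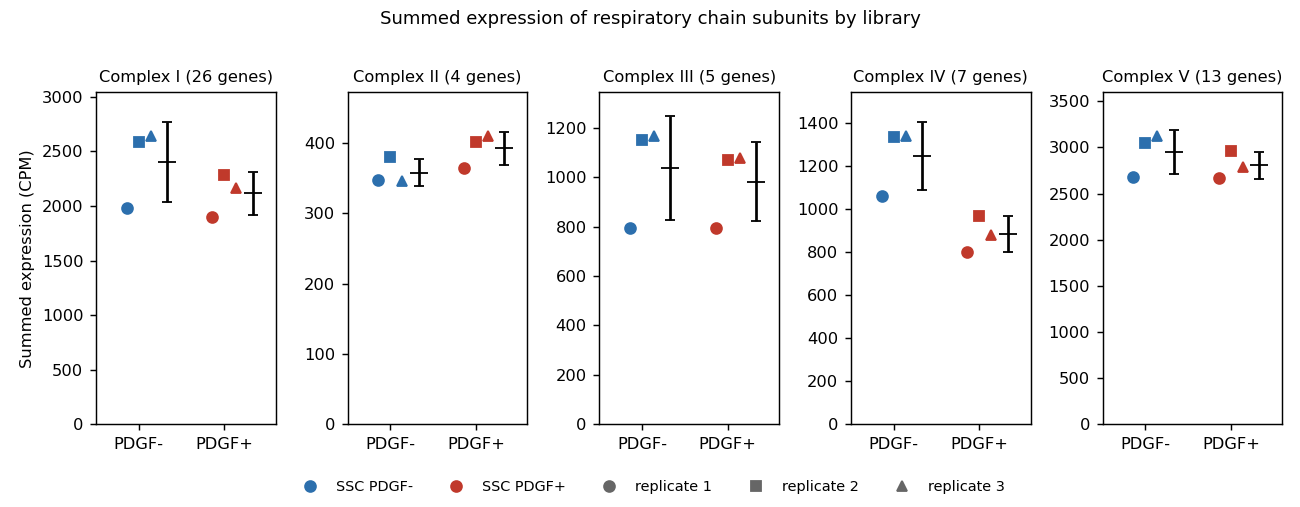
Summed expression in CPM of the subunit genes of complexes I to V in each library, SSC PDGF- in blue and SSC PDGF+ in red, with marker shape giving the replicate and black bars the mean and SD (n = 3). Complex IV is the complex whose groups are apart, at 800 to 969 CPM with PDGF against 1063 to 1342 CPM without.

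Complex I, the NADH dehydrogenase, had no gene past the threshold among 25 tested (0 higher and 0 lower), with 1 higher and 1 lower at an unadjusted p under 0.05. DESeq2 called 1 of them higher. Log2 fold changes ran from -0.65 for NDUFS6, an accessory subunit that contains zinc, to 0.55 for NDUFS1, with a median of -0.13. Under the replicate block 3 were higher and 11 lower, but 14 were higher and 1 lower once the GC and length offset was included.

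The core subunits of complex I carry the flavin and the iron-sulfur clusters through which electrons pass. Among them NDUFV1, NDUFS3, NDUFS7 and NDUFS8 had negative values. NDUFS1 had a positive one. It encodes the largest subunit, a carrier of iron-sulfur clusters, and gave 97.1, 78.1 and 91.1 CPM in SSC PDGF+ and 75.0, 54.9 and 52.1 CPM in SSC PDGF-. Every PDGF+ library lay above every PDGF- library, the only complex I gene of which this was true. NDUFS1 averaged 88.7 ± 9.68 CPM against 60.7 ± 12.5 CPM (SD, n = 3), which gives a log2 fold change of 0.55 (SE 0.18) that missed the threshold in edgeR (adjusted p = 0.073) and passed it with the block (adjusted p = 1.9e-06). On the opposite strand it overlaps EEF1B2 in the reference annotation, and the sources used here do not state whether counting used strand.

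NDUFV1, the flavoprotein that accepts electrons from NADH, pointed the other way. It measured 86.3, 152 and 155 CPM in SSC PDGF+ and 134, 236 and 226 CPM in SSC PDGF-, so that the groups overlapped although each PDGF+ library was below its PDGF- counterpart in number. The log2 fold change was -0.60 (SE 0.28, edgeR adjusted p = 0.18), with -0.64 within batch 1 and -0.59 within batch 2. With the block it passed (adjusted p = 1.8e-09), and it was the only complex I gene still lower with block and offset (-0.21, adjusted p = 0.0017). In the reference annotation DOC2G and LOC721699 overlap it on the opposite strand.

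Accessory subunits surround the complex I core. The 9 tested NDUFA genes, among which NDUFAB1 is also the mitochondrial acyl carrier protein, ranged from -0.37 to 0.34, and the 7 NDUFB genes, which belong to the membrane arm, from -0.44 to 0.25. NDUFB8 had the highest level per length in complex I, at 205 CPM per kilobase. Its libraries read 146, 151 and 131 CPM with PDGF and 134, 142 and 135 CPM without, and the groups overlapped. The log2 fold change was 0.06 (SE 0.13, edgeR adjusted p = 0.79), and the block with offset raised it to 0.48 (adjusted p = 2.5e-07).

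NDUFA4 was counted with complex I by its symbol, although its protein is known to be a subunit of complex IV. It gave 91.0, 74.1 and 83.2 CPM in SSC PDGF+ and 118, 96.3 and 86.3 CPM in SSC PDGF-. The groups overlapped, and the log2 fold change was -0.28 (SE 0.17, edgeR adjusted p = 0.28). It was lower with the block (adjusted p = 0.0016) and not with block and offset (-0.03, adjusted p = 0.80). Its oxygen-linked paralog NDUFA4L2 had 0 counts in all 6 libraries, which allows a level of up to 0.203 to 0.294 CPM per library at 3 counts. CHCHD2 and COQ4, which most cells use, were also listed at 0 throughout, so a 0 in this table cannot be read as absence of the transcript.

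Complex II, the succinate dehydrogenase, joins the respiratory chain to the citric acid cycle and is encoded entirely in the nucleus. None of its 4 genes passed the threshold in edgeR (0 higher and 0 lower, and 0 at an unadjusted p under 0.05), and DESeq2 likewise called 0. Its median log2 fold change was 0.15, with 3 genes positive and 1 negative. With the block SDHB and SDHC were higher, and with block and offset SDHA was as well.

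SDHB, the iron-sulfur subunit, read 90.5, 86.3 and 80.3 CPM in SSC PDGF+ and 74.9, 82.0 and 65.5 CPM in SSC PDGF-. A single PDGF- library, replicate 2, reached into the PDGF+ range. Its log2 fold change was 0.21 (SE 0.14, edgeR adjusted p = 0.35, with the block 0.0087). SDHC, a membrane anchor, had 95.3, 75.6 and 89.7 CPM against 85.2, 70.7 and 68.2 CPM, with a log2 fold change of 0.22 (SE 0.16, edgeR adjusted p = 0.37, with the block 0.0090). SDHA, the flavoprotein subunit, had the highest level per length in the complex at 80.3 CPM per kilobase. SDHA gave 157, 217 and 216 CPM against 167, 200 and 189 CPM (log2 fold change 0.09, SE 0.16, edgeR adjusted p = 0.75). SDHD, the other anchor, gave 22.1, 22.1 and 24.3 CPM against 20.1, 26.8 and 23.1 CPM (log2 fold change -0.03, SE 0.17, edgeR adjusted p = 0.92).

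Complex III, the cytochrome bc1 complex, combined the most negative gene of the chain with a pair of positive ones. UQCRH, the hinge protein that binds cytochrome c1, measured 2.84, 3.83 and 5.63 CPM in SSC PDGF+ and 9.12, 11.3 and 11.0 CPM in SSC PDGF-. All PDGF+ libraries were below all PDGF- libraries. It averaged 4.10 ± 1.42 CPM against 10.5 ± 1.18 CPM (SD, n = 3), which gives a log2 fold change of -1.35 (SE 0.28, edgeR adjusted p = 0.014), with -1.67 within batch 1 and -1.26 within batch 2. At 42 to 118 counts per library it was the lowest of the tested members, at 9.52 CPM per kilobase. UQCRH had counts identical to those of NSUN4 and LOC708660 in every library, so the reads cannot be assigned to a single gene, and LRRC41 overlaps it on the opposite strand. The call was kept in 3 of the 6 fits that left out 1 library, and was lost without SSC PDGF+ replicate 2 (adjusted p = 0.060), SSC PDGF- replicate 2 (0.054) or SSC PDGF- replicate 3 (0.053), and with replicates 2 and 3 summed (0.085).

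The core proteins UQCRC1 and UQCRC2 form the matrix side of complex III. UQCRC2 gave 197, 175 and 173 CPM in SSC PDGF+ and 172, 145 and 145 CPM in SSC PDGF-, without overlap. Its log2 fold change was 0.24 (SE 0.14) and did not pass in edgeR (adjusted p = 0.26), but did with the block (adjusted p = 3.6e-04). UQCRC1 was spread more by batch than by group, at 235, 365 and 364 CPM against 196, 322 and 334 CPM. It had a log2 fold change of 0.18 (SE 0.25, edgeR adjusted p = 0.65, with the block 0.0013), and -0.04 without SSC PDGF- replicate 1.

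UQCR11, a small subunit, was the most abundant of complex III per length at 482 CPM per kilobase. It read 238, 442 and 462 CPM in SSC PDGF+ and 306, 584 and 580 CPM in SSC PDGF-, and the 2 groups overlapped through the low replicate 1 of SSC PDGF-. The log2 fold change of -0.36 (SE 0.31, edgeR adjusted p = 0.46) passed with the block (adjusted p = 1.8e-07) and changed sign with block and offset (0.06). Its counts were identical to those of MBD3. UQCRB, the fifth gene, had a log2 fold change of -0.10.

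Complex IV, cytochrome c oxidase, had negative log2 fold changes for all 7 of its listed genes, with a median of -0.39, of which 1 passed the threshold. Under the block 6 of 7 were lower. With block and offset 3 remained lower (COX6C, COX7A1 and COX7C), 1 was higher (COX5A), and the median was -0.08, so the common direction of the complex did not survive that setting.

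COX7C, a small structural subunit and the shortest member at 270 bp, had the smallest adjusted p of the members. It measured 157, 163 and 141 CPM in SSC PDGF+ and 221, 259 and 274 CPM in SSC PDGF-. The highest PDGF+ library was below the lowest PDGF- library. Means were 154 ± 11.7 CPM and 251 ± 27.7 CPM (SD, n = 3), a fold of 0.612 and a log2 fold change of -0.71 (SE 0.14, edgeR adjusted p = 0.011). Within batch 1 the log2 difference was -0.49, and within batch 2 it was -0.81. Per length it was also the most abundant of all members, at 750 CPM per kilobase. The call was kept in 3 of 6 fits without 1 library, being lost without SSC PDGF+ replicate 3 (adjusted p = 0.060), SSC PDGF- replicate 2 (0.053) or SSC PDGF- replicate 3 (0.055), and with replicates 2 and 3 summed (0.19), and it stood with block and offset (-0.41, adjusted p = 8.5e-06).

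COX4I1 and COX6C also had libraries that did not overlap between groups. COX4I1, the common isoform of a regulatory subunit, gave 303, 455 and 439 CPM with PDGF and 464, 626 and 623 CPM without. Its log2 fold change of -0.52 (SE 0.19, edgeR adjusted p = 0.10) passed with the block (adjusted p = 7.7e-10) but not with block and offset (-0.08, adjusted p = 0.097). COX6C, another nuclear-encoded subunit, gave 127, 122 and 93.7 CPM against 148, 156 and 144 CPM, with a log2 fold change of -0.39 (SE 0.15, edgeR adjusted p = 0.12). It was lower with the block (adjusted p = 1.9e-05) and with block and offset (-0.22, adjusted p = 0.0033).

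Isoforms of the COX7A subunit differed in level and spread. COX7A1, the form typical of heart and skeletal muscle, measured 17.8, 36.6 and 31.6 CPM in SSC PDGF+ and 26.7, 83.3 and 88.5 CPM in SSC PDGF-. Replicate 1 was the lowest library of both groups, and the groups overlapped there. The log2 fold change was -1.21 (SE 0.45) and did not pass in edgeR (adjusted p = 0.099), while DESeq2 called it lower (adjusted p = 0.018), as did the block (adjusted p = 2.4e-08). The difference within batch 1 was -0.58 and within batch 2 -1.33. Markers of peritubular myoid cells, a contractile cell type, moved the same way. ACTA2, smooth muscle actin, averaged 139 ± 6.46 CPM in SSC PDGF+ and 317 ± 14.8 CPM in SSC PDGF- (SD, n = 3, edgeR adjusted p = 6.0e-04), and DES, desmin, averaged 3.55 ± 0.623 CPM and 34.4 ± 6.78 CPM (edgeR adjusted p = 1.5e-04). Their part in the COX7A1 value was not tested.

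COX7A2L, which is known for its role in joining complexes III and IV, was low at 15.4 CPM per kilobase. Its libraries gave 23.0, 10.5 and 15.9 CPM in SSC PDGF+ and 26.0, 12.8 and 15.4 CPM in SSC PDGF-, with wide overlap (log2 fold change -0.14, SE 0.35, edgeR adjusted p = 0.82). COX7B gave 105, 94.5 and 80.1 CPM against 100.3, 108 and 107 CPM (log2 fold change -0.17, SE 0.15, edgeR adjusted p = 0.44). Both values changed sign with block and offset, to 0.02 in each case.

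Complex V, the ATP synthase, had 13 genes tested and none past the threshold in edgeR (0 higher and 0 lower), with 1 higher and 1 lower at an unadjusted p under 0.05. DESeq2 called 1 higher and 1 lower. Log2 fold changes ran from -0.86 for ATP5ME to 0.68 for ATP5PO, with a median of -0.11. With the block 3 were higher and 6 lower, and with block and offset 9 were higher and 2 lower.

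The catalytic head of the ATP synthase is built from alpha and beta subunits in equal number. ATP5F1A, the alpha subunit, gave 718, 757 and 760 CPM in SSC PDGF+ and 784, 781 and 801 CPM in SSC PDGF-, and ATP5F1B, the beta subunit, gave 710, 740 and 711 CPM in SSC PDGF+ and 609, 628 and 608 CPM in SSC PDGF-. Neither pair of groups overlapped, and the 2 genes lay on opposite sides. ATP5F1A averaged 745 ± 23.4 CPM against 789 ± 10.8 CPM (SD, n = 3), with a log2 fold change of -0.08 (SE 0.11, edgeR adjusted p = 0.63). ATP5F1B averaged 721 ± 17.2 CPM against 615 ± 11.2 CPM, with a log2 fold change of 0.23 (SE 0.11, edgeR adjusted p = 0.18), and passed with the block (adjusted p = 2.8e-05). ATP5F1A was the most abundant complex V gene per length at 421 CPM per kilobase, and its small negative value became 0.01 with block and offset.

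The peripheral stalk holds the catalytic head still against the turning rotor. ATP5PO, the stalk's link to the head, gave 32.2, 23.5 and 27.3 CPM in SSC PDGF+ and 22.4, 13.4 and 16.0 CPM in SSC PDGF-, without overlap. Its log2 fold change of 0.68 (SE 0.23) missed the threshold in edgeR (adjusted p = 0.077), and was 0.52 within batch 1 and 0.79 within batch 2. The block called it higher (adjusted p = 2.8e-05), but its counts were identical to those of DONSON in every library. ATP5PD, another stalk subunit, gave 118, 117 and 108 CPM against 120.5, 139 and 129 CPM, and its value of -0.18 (SE 0.13, edgeR adjusted p = 0.37) turned to 0.25 with block and offset.

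The membrane part of complex V holds the ring of c subunits and several small proteins. Of the 6 ATP5M genes, 5 had negative values, of which none passed in edgeR. ATP5MJ, a small membrane subunit, came closest, at 119, 110 and 90.4 CPM in SSC PDGF+ against 143, 146 and 159 CPM in SSC PDGF-. Its groups did not overlap, and its log2 fold change was -0.49 (SE 0.15, edgeR adjusted p = 0.054, with the block 6.8e-06). With block and offset it did not pass (-0.12, adjusted p = 0.15). ATP5ME had the widest spread, at 48.7, 123 and 91.8 CPM against 67.3, 185 and 227 CPM (log2 fold change -0.86, SE 0.46, edgeR adjusted p = 0.23). ATP5MC2, one of the genes for the c subunit, gave 126, 188 and 168 CPM against 158, 242 and 262 CPM (log2 fold change -0.46, SE 0.23, edgeR adjusted p = 0.20). Both ATP5ME and ATP5MC2 were lower with the block and with block and offset, whereas ATP5MC1 and ATP5MC3, which encode the same mature c subunit, were higher with block and offset (0.31 and 0.30).

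Across the chain, 4 members had all SSC PDGF+ libraries above all SSC PDGF- libraries (NDUFS1, UQCRC2, ATP5F1B and ATP5PO), and 7 had them below (UQCRH, COX4I1, COX6C, COX7C, ATP5F1A, ATP5MJ and ATP5PD). Of all genes tested, 18.2% were above and 19.3% below in this sense, beside 7.27% and 12.7% of the 55 members. Taken by replicate number, 10 of 54 members were higher with PDGF in all 3 numbers, 27 were lower in all 3 and 17 were mixed. Of all genes, 38.2% and 36.0% were higher or lower throughout. Numbers 2 and 3 both lie in batch 2, so which of their libraries match is set by the number alone. The median over members was -0.07, -0.12 and -0.22 in replicate numbers 1, 2 and 3.

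**Figure D4:**
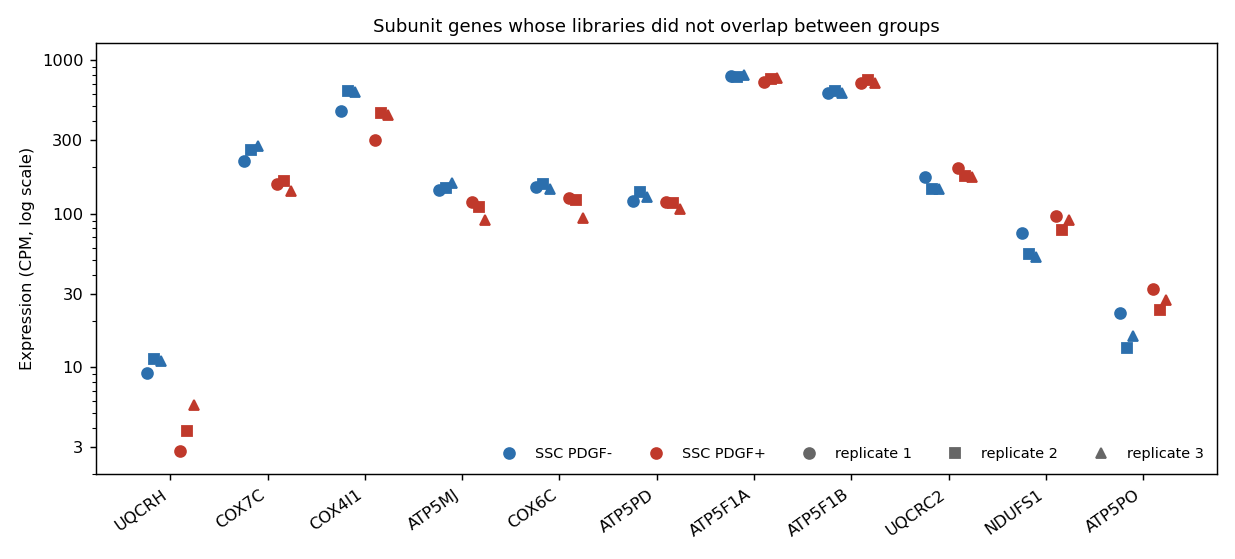
Expression in CPM (log scale) of the 11 subunit genes whose libraries did not overlap between groups, SSC PDGF- in blue and SSC PDGF+ in red, with marker shape giving the replicate. The 7 genes at the left, from UQCRH to ATP5F1A, were lower in every PDGF+ library and the 4 at the right, from ATP5F1B to ATP5PO, were higher, with UQCRH (2.84 to 11.3 CPM) and COX7C (141 to 274 CPM) the pair past the adjusted threshold.

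Calls in the same direction under the block and under block and offset were made for 9 higher genes (NDUFB6, NDUFS1, SDHB, SDHC, UQCRC1, UQCRC2, ATP5F1B, ATP5F1C and ATP5PO) and 7 lower genes (NDUFV1, UQCRH, COX6C, COX7A1, COX7C, ATP5MC2 and ATP5ME). A further 8 genes were called lower under the block and higher with the offset. Of all genes, 31.1% were called higher and 29.0% lower under the block, and 28.5% and 27.8% with block and offset. The share of all genes called alike or in opposite directions in both settings is not given here. These counts therefore do not set the members apart from other genes. Identical counts with another gene were found for 8 members (ATP5MF, ATP5PO, NDUFA7, NDUFA9, NDUFAB1, NDUFB6, UQCR11 and UQCRH), and without them 46 members were tested, with 0 higher, 1 lower and a median of -0.12. Exons of NDUFA4L2, NDUFS1, NDUFS3, NDUFV1, UQCRH, ATP5PD and ATP5PF overlap those of another listed gene on the opposite strand.

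Without a term for batch, few of the genes that assemble the complexes passed the threshold. Of all genes, 7.61% were higher and 10.7% lower in edgeR. For complexes II, III, IV and V, 0 of 4, 0 of 5, 0 of 15 and 0 of 3 assembly factors passed in either direction. Among 16 complex I assembly factors, 1 was higher and 1 lower. The higher gene was ACAD9, which also belongs to the acyl-CoA dehydrogenases, at 90.2, 105 and 108 CPM in SSC PDGF+ and 68.1, 73.1 and 72.7 CPM in SSC PDGF- (log2 fold change 0.50, SE 0.14, adjusted p = 0.038). The lower gene was FOXRED1, an oxidoreductase-like assembly factor, with a log2 fold change of -0.54 (SE 0.16, adjusted p = 0.0499). For ACAD9 and for FOXRED1 the call was kept in 1 of the 6 fits that left out 1 library. Both calls were lost with replicates 2 and 3 summed (edgeR adjusted p = 0.32 and 0.36). Under the block, 3 complex I assembly factors were higher and 6 lower, against 31.1% and 29.0% of all genes. For complexes II, III, IV and V the block called 0, 1, 1 and 1 higher and 1, 1, 2 and 0 lower. Medians of these lists lay between -0.19 and 0.10. CYC1, cytochrome c1 itself, had a log2 fold change of 0.13 and was not called in edgeR (adjusted p = 0.78). It was higher with the block (adjusted p = 0.041) and with block and offset (0.53, adjusted p = 1.6e-08).

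Synthesis of coenzyme Q, the carrier between complexes I or II and complex III, had 10 genes tested. In edgeR 0 were higher and 2 lower, beside 7.61% and 10.7% of all genes. COQ8A, a kinase-like protein of this pathway, averaged 5.77 ± 1.75 CPM in SSC PDGF+ and 16.2 ± 4.50 CPM in SSC PDGF- (SD, n = 3, log2 fold change -1.49, edgeR adjusted p = 0.012). COQ7, a hydroxylase of the pathway, was near the floor with PDGF, at 7, 2 and 1 counts against 21, 21 and 12 counts (edgeR adjusted p = 0.018). The median of the list was -0.16, and the block called 1 higher and 4 lower (31.1% and 29.0% of all genes).

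Genes for upkeep and transcription of mitochondrial DNA had 0 of 8 past the threshold in either direction, with a median of 0.29, and 4 higher under the block (31.1% of all genes). Nuclear regulators of respiratory chain genes had 0 of 9, with a median of 0.03. In edgeR 7.61% of all genes were higher and 10.7% lower. Under the block 2 regulators were higher and 3 lower (31.1% and 29.0% of all genes). PPARGC1A, the coactivator of mitochondrial biogenesis, gave 4.52, 4.07 and 2.93 CPM in SSC PDGF+ and 7.80, 7.09 and 5.39 CPM in SSC PDGF-, without overlap (log2 fold change -0.81, SE 0.27, edgeR adjusted p = 0.071). It is named outside the rule, after its values were seen.

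Carriers that move ADP, phosphate and metabolites across the mitochondrial membranes had 1 of 6 higher and 1 lower (7.61% and 10.7% of all genes). Under the block 3 were higher and 2 lower (31.1% and 29.0% of all genes). VDAC1, the outer membrane channel, averaged 192 ± 4.41 CPM in SSC PDGF+ and 144 ± 8.61 CPM in SSC PDGF- (SD, n = 3, log2 fold change 0.41, edgeR adjusted p = 0.0498), a call lost in each of the 6 fits without 1 library. UCP2, an uncoupling protein family member, averaged 0.478 ± 0.399 CPM against 3.55 ± 1.36 CPM (log2 fold change -2.89, edgeR adjusted p = 0.011), with 3 to 12 counts per PDGF+ library.

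Among the pathway lists, genes that link mitochondria to oxygen supply had the most calls, with 4 of 8 higher and 0 lower in edgeR. Of all genes, 7.61% were higher and 10.7% lower. The median log2 fold change of the list was 0.75. Under the block 6 were higher and 1 lower, against 31.1% and 29.0% of all genes. The list was chosen with earlier results of these data known, so its rank is a description only. BNIP3, a mitophagy receptor, measured 320, 260 and 241 CPM in SSC PDGF+ and 78.7, 62.5 and 58.4 CPM in SSC PDGF-. Its groups were far apart, with a log2 fold change of 2.04 (SE 0.18, edgeR adjusted p = 3.1e-04). PDK1, the kinase that holds pyruvate out of the citric acid cycle, measured 9.72, 8.52 and 10.1 CPM against 3.20, 2.87 and 4.02 CPM (log2 fold change 1.49, SE 0.23, edgeR adjusted p = 0.0039). PDK4 and BNIP3L were the others called, and all 4 genes kept their calls in each of the 6 fits that left out 1 library.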

How the data were processed

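Bulk RNA sequencing of 6 libraries of cultured rhesus monkey SSCs was analysed, 3 SSC PDGF+ and 3 SSC PDGF-, grouped by sample label. The authors deposited expected counts per gene, raw and without normalization, in which 34 values of 13 genes (0 of them members) are not whole and were rounded. The submitters' processing notes name fastp, HISAT2 2.1.0, SAMtools, featureCounts 2.0.1 and both Mmul_10 and Mmul_8.0.1; which build the counts used is not given, so no coordinates are printed. The strand setting of the counting is not stated. Totals were 10593805 to 14102697 counts, and 3004 of 17795 genes had none. The limit for 0 counts is 3 counts per library and covers counting error only.

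The members and lists were chosen with earlier results of these data known. The whole table was tested with edgeR 4.0.16 (R 4.3.3; TMM, filterByExpr by group, quasi-likelihood test, no block, Benjamini-Hochberg adjusted p under 0.05). The SE of a fold change was taken from its log2 value and the F statistic (log2 value over the root of F). CPM are TMM-normalized. Differences within a batch add 0.5 counts. For 55 of 55 members, length was that of the merged exons of all RefSeq transcripts of the gene in Mmul_10. GC content came from the longest of these transcripts. Gene ID was used to match 394 genes. The offset removed the trend with both length and GC content in each library. The script was tested on simulated counts.

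Same-numbered libraries share a batch by label. Replicates 2 and 3 of both groups all lie in batch 2, so the labels do not settle which of these libraries pair. Their deviations from the group means correlated at 0.73, 0.35 and 0.37 for numbers 1, 2 and 3 over all genes, and numbers 2 and 3 also correlated across (0.39 and 0.36). Genes are named with per-library values where they passed the threshold, had the highest level per length in a complex, or belong to isoform pairs, and other pathway genes up to 2 per direction and list; members whose groups did not overlap, all of complex II, and NDUFV1, UQCRC1, ATP5ME and ATP5MC2 were added after the values were seen. Alternatives used other normalizations (RLE, upper quartile, none), filters, DESeq2 1.42.0, limma-voom (3.58.1), a replicate block, a batch term, batch 2 alone, GC and length offsets, summed replicates, each library left out and other thresholds. The values of 1 tested member are not reported here, in text or figures, though it is counted.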

Additional observations from a re-analysis of the deposited data

How the results depend on the processing

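Every alternative listed under the methods was run, and 3 were chosen after seeing the data (GC offset alone, length offset alone, and members without identical counts). Against 0 members higher and 2 lower in the test as reported, the counts were 2 and 4 with DESeq2, 10 and 25 with the replicate block, 10 and 26 with batch as a term, 6 and 28 in batch 2 alone, 15 and 3 with the GC and length offset (median log2 fold change 0.18), 29 and 7 with that offset and the replicate block (median 0.18), 9 and 20 with the replicate block and GC offset alone, 31 and 8 with the replicate block and length offset alone (median 0.20), 0 and 0 with replicates 2 and 3 summed, 0 and 0 at an adjusted p under 0.01, and 2 and 4 at an adjusted p under 0.1. Other normalizations and filters gave 0 higher and 2 or 3 lower. Leaving out 1 library at a time gave 0 to 2 higher and 0 to 10 lower. Of all genes, 31.2% and 29.4% were called higher and lower with batch as a term, 26.2% and 26.6% in batch 2 alone, 21.0% and 21.6% with the GC and length offset, 1.72% and 4.06% with replicates summed, 3.10% and 4.71% at an adjusted p under 0.01, and 12.3% and 14.7% at 0.1. The offset, whose cause of effect was not tested, turned the median of the members and of complexes I, III and V from negative to positive, while that of complex IV stayed negative at -0.08.

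Over the members given with values, 575 values under alternatives were compared, of which 409 kept direction and side of the threshold, 129 passed it newly, 10 no longer passed it and 27 changed sign. With the replicate block and GC and length offset, with that offset alone, and with the replicate block and length offset alone, the log2 fold change became 0.056, 0.058 and 0.0039 for UQCR11, 0.010, 0.012 and 0.10 for ATP5F1A, 0.017, 0.020 and 0.19 for COX7A2L, 0.015, 0.0029 and 0.20 for COX7B, 0.25, 0.26 and 0.19 for ATP5PD, and 0.050, 0.038 and 0.28 for SDHD. NDUFA4 was at 0.11 with the replicate block and length offset alone, SDHD at 0.020 with replicates summed, and NDUFB8 at -0.0075 with upper quartile factors. Leaving out 1 library moved COX7A2L between -0.44 and 0.22, SDHD between -0.14 and 0.085, and UQCRC1 between -0.041 and 0.37. No sign change in a fit without the offset was past the threshold.

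With 3 libraries a group, the SE of a log2 fold change was 0.11 to 0.48 over the members, so differences of that size were not detectable without the block. UQCRH, UCP2 and COQ7 rest on few counts. Replicates 2 and 3 may not be independent, reads shared with genes of identical counts cannot be assigned, and replicate 1 is the only library of each group in batch 1, so its differences have no test.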
